A study of Mus musculus with 20 samples.

Results

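Expression of 31 mouse genes that make cholesterol, regulate its level, move it between membranes, export it or store it was examined in neural stem cells of the adult spinal cord with and without YAP1. The genes were found by their symbols among the 16927 genes of the deposited table, and all 31 were present. Of these, 30 passed the filter on low counts, as did 13046 genes in all. The set holds 20 enzymes of synthesis and 11 other genes: 5 regulators, 3 transporters and 3 genes of efflux and storage. Abcg1, a sterol exporter, was the gene that did not pass: it had 0 and 2 counts in KO differentiation, 1 and 3 in WT differentiation, 0 and 1 in KO proliferation and 0 in both WT proliferation libraries.

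Cells came from spinal cord and were grown as neurospheres, floating clusters of neural stem cells. KO cells carried a Yap1 allele whose exon 3 is cut out by Cre recombinase, which was delivered by an adenovirus with a CMV promoter, and WT cells are labelled wild type. The labels do not say whether WT cells received any virus or carried the same allele, so that effects of virus or allele, if any, and of losing YAP1 cannot be told apart. KO and WT cells were collected in differentiation, after 5 days, and in proliferation, after 7 days with EGF, FGF2 and heparin, on a common medium with N2 and B27 supplements. Effects of days in culture, of these additions and of differentiating cannot be told apart. Of 20 labelled samples, the 8 libraries numbered 7 and 8 in the 4 groups were analysed (n = 2 per group), and the other 12 were not analysed here. The labels do not say whether these came from separate animals or cultures, so p-values measure the spread between the samples, which may be technical.

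Cholesterol is built from acetyl-CoA through mevalonate, isoprenoid diphosphates, squalene and lanosterol, the first sterol, which a further chain of enzymes turns into cholesterol. Genes of the pathway are switched on together by SREBP transcription factors, which the escort protein SCAP carries to the Golgi for cleavage and INSIG proteins hold back in the endoplasmic reticulum when sterols are plentiful. Plasma lipoproteins hardly enter the central nervous system, so its cells make their own cholesterol, astrocytes above all, and excess sterol is exported by ABC transporters under control of the LXR receptors or esterified for storage.

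Promoter sequence is shown for synthesis enzymes with high levels because SREBP acts there, next to NF-Y, the factor that binds CCAAT boxes. Sequences are from RefSeq on GRCm38.p6, are written from 5′ to 3′ on the strand of the gene, and cover the 250 bases before the annotated start. Matches were sought on both strands for the letters TCACNCCAC (the classical sterol regulatory element), CCAAT and GGGCGG (a GC box), and matches that overlapped others were counted too. The table held promoters of 25 of the 31 genes and none for Fdps, Fdft1, Sqle, Stard4, Npc1 and Abcg1. In Hmgcs1, at chr13:119690101-119690350 (plus strand), capitals mark the sterol regulatory element 137 bases before the start and CCAAT boxes, read as ATTGG, at 237, 176 and 45 bases.
Hmgcs1: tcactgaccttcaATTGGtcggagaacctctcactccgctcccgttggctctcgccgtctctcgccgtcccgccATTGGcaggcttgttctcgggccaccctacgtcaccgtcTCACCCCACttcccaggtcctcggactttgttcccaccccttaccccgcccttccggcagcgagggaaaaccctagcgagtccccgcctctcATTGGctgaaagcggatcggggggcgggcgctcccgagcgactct
Exons of other annotated transcripts in GENCODE M21 reach into the windows of the next 5 genes, so that each is shown as short sites, with capitals on the CCAAT box or its reverse, ATTGG, and 10 bases on each side where the window allows. Of 3 annotated starts of Dhcr7, the one with the most CCAAT matches was used, and the others had no such match. The window of that start lies within the gene, with all 250 bases in annotated exons. The Idi1 window also lies within the gene, which starts at 8884914 in the deposited coordinates, with all 250 bases in annotated exons. So does that of Nsdhl, a gene that starts at 72894378 in those coordinates, with 112 bases in annotated exons.
Msmo1, match 160 bases before the start, chr8:64733724-64733748 (minus strand): atccgcgcagCCAATgactggcgcc
Msmo1, match 96 bases before the start, chr8:64733660-64733684 (minus strand): ttagcacggaCCAATcactgcacgg
Msmo1, match 55 bases before the start, chr8:64733619-64733643 (minus strand): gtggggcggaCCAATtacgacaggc
Cyp51, match 29 bases before the start, chr5:4104712-4104736 (minus strand): ctgtccgccaCCAATctggtcctga
Idi1, match 45 bases before the start, chr13:8885551-8885575 (plus strand): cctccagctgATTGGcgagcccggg
Idi1, match 14 bases before the start, chr13:8885582-8885605 (plus strand): ccaaggtgccATTGGctggcgacc
Dhcr7, match 85 bases before the start, chr7:143830119-143830143 (plus strand): actgccttcaCCAATcacaggacgc
Dhcr7, match 49 bases before the start, chr7:143830155-143830179 (plus strand): tccacttccgATTGGtcgtctgtga
Nsdhl, match 109 bases before the start, chrX:72918402-72918426 (plus strand): cccgcttcccATTGGtttgggaacg
Nsdhl, match 20 bases before the start, chrX:72918491-72918515 (plus strand): gactagcctcATTGGgcaaaatcat
A CCAAT match was found before the start of 22 of 25 genes of the set (88.0%), and before 41.1% of the 10331 tested genes in the table and 37.5% of all 27025 genes. For a gene with several annotated starts, a match before any of them counted, here and for the other letters. Abca1, Acat2 and Scap had none. A GGGCGG match was found in 22 of 25 (88.0%), against 64.6% of tested genes and 35.4% of all genes. The TCACNCCAC letters were found in Hmgcs1 alone (4.0% of 25), against 1.2% of tested genes. These are matches of letters and show neither binding nor its absence.

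Total counts per library ranged from 18075595 to 18940983, and the smallest count of any of the 30 tested genes in a library was 120. Yap1, the targeted gene, had 22.6 and 27.8 CPM in KO differentiation against 107 and 93.7 CPM in WT differentiation, and 27.0 and 32.7 CPM in KO proliferation against 170 and 150.4 CPM in WT proliferation (CPM, counts scaled to the TMM-adjusted library size, edgeR). All 7 neural stem cell markers were detected. In differentiation, Gfap, the astrocyte filament, was at 449 and 1279 CPM in KO cells and 2918 and 2504 CPM in WT cells, while mitosis genes were nearly silent. Of 6 listed microglial markers 4 were found, with a sum of at most 0.601 CPM in a library, and 1 of these, Ptprc, was at 0 in every library. The summed microglial, endothelial and pericyte or fibroblast markers stayed at or below 5.84 CPM. The first axis of a principal component analysis, with 81.9% of the variance, separated the conditions, and the second, with 10.7%, separated libraries numbered 7 from those numbered 8.

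Levels per length differed widely within the set. Hmgcs1, which makes HMG-CoA for the mevalonate pathway, had the highest mean over the 8 libraries, at 1351 TPM (deposited values, scaled for gene length). Fdps, which makes farnesyl diphosphate, averaged 442 TPM, Msmo1, a sterol C4-methyl oxidase, 381 TPM, Sqle, which epoxidises squalene, 331 TPM, and Cyp51, which removes the C14 methyl group of lanosterol, 304 TPM. At the low end were Insig2 at 24.7 TPM, Hsd17b7, a ketosteroid reductase of the pathway, at 20.7 TPM, and Abcg1 at 0.0175 TPM. The levels of the 20 enzymes summed to 5422 and 6272 TPM in KO differentiation, 4269 and 5398 TPM in WT differentiation, 3636 and 2717 TPM in KO proliferation and 4098 and 3344 TPM in WT proliferation. The differentiation libraries were thus above the proliferation libraries of the same genotype. Both KO libraries were above both WT libraries in differentiation (the nearest at 5422 and 5398 TPM), and KO and WT overlapped in proliferation. Without Hmgcs1 the sums were 3402 and 3940, 2676 and 3287, 2969 and 2155, and 3308 and 2614 TPM in the same order of groups, and the conditions then overlapped in WT cells.

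**Figure D1:**
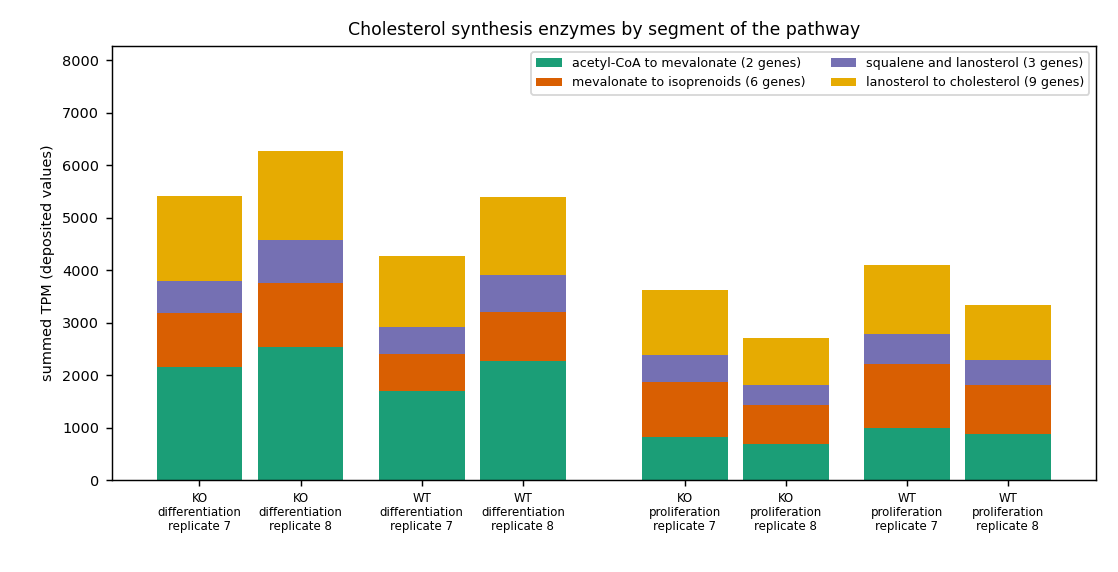
Summed deposited TPM (y axis, linear from 0) of the 20 synthesis enzymes in each of the 8 libraries (x axis), stacked by segment of the pathway. The first segment, Acat2 and Hmgcs1, held 2162 and 2542 TPM in KO differentiation, 1701 and 2278 TPM in WT differentiation, 833 and 690.3 TPM in KO proliferation and 992 and 888 TPM in WT proliferation.

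The first comparison asked which of these genes differ between the differentiation and proliferation conditions. Of the 30 tested genes, 10 were higher in KO differentiation than in KO proliferation at an adjusted p under 0.05, where 25.1% of all tested genes were, and 3 were lower, where 26.7% were (edgeR quasi-likelihood test, Benjamini-Hochberg adjustment over 13046 genes). In WT cells 5 were higher, against 27.0% of all genes, and 3 were lower, against 28.3%. The genes called higher are 33.3% of the set in KO cells and 16.7% in WT cells, so that a smaller share of the set than of all genes was called in each case except upward in KO cells. The median log2 fold change of the 30 was 0.27 in KO cells and 0.05 in WT cells, beside 0.01 for all tested genes in each genotype. In bulk RNA, fewer cells of a type and less RNA per cell cannot be told apart.

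Hmgcs1 rose in both genotypes. It had 3409 and 3601 CPM in KO differentiation against 1123 and 914 CPM in KO proliferation, and 2596 and 3304 CPM in WT differentiation against 1393 and 1200 CPM in WT proliferation. No differentiation library overlapped a proliferation library. The log2 fold change was 1.78 ± 0.18 in KO cells (SE, adjusted p = 0.000439, edgeR) and 1.19 ± 0.18 in WT cells (adjusted p = 0.00168). Acat2, the cytosolic thiolase that feeds the first step, passed in neither genotype, at 158 ± 33.9 CPM in KO differentiation against 137 ± 27.7 CPM in KO proliferation and 122 ± 34.3 CPM in WT differentiation against 172 ± 38.1 CPM in WT proliferation (mean ± SD, n = 2). Mouse Acat2 has a close copy, Acat3, and how reads common to both were counted is not stated.

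From mevalonate to the isoprenoids, single enzymes went different ways. Pmvk, the phosphomevalonate kinase, had 52.0 and 67.1 CPM in KO differentiation against 31.4 and 25.6 CPM in KO proliferation, a log2 rise of 1.07 ± 0.23 (SE, edgeR adjusted p = 0.00959). In WT cells it had 36.2 and 53.8 CPM in differentiation against 36.0 and 30.6 CPM in proliferation, and did not pass (0.44 ± 0.23, adjusted p = 0.155). Mvd, which decarboxylates the product of Pmvk, had 103 and 153.5 CPM in KO differentiation against 75.5 and 53.9 CPM in KO proliferation. It rose there by 0.99 ± 0.30 (adjusted p = 0.033), and had a log2 fold change of 0.33 ± 0.30 in WT cells (adjusted p = 0.384). The call for Mvd was lost without KO proliferation replicate 8 (0.77) and without KO differentiation replicate 8 (0.67).

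Fdps went down in WT cells. It had 133 and 172 CPM in WT differentiation against 355 and 222 CPM in WT proliferation, without overlap, and fell by 0.93 on the log2 scale (SE 0.29, edgeR adjusted p = 0.0343). In KO cells it had 234 and 245 CPM in differentiation against 271 and 174 CPM in proliferation, where the libraries overlapped (0.11 ± 0.29, adjusted p = 0.775). The WT call was lost without WT proliferation replicate 7 (-0.54), WT differentiation replicate 7 (-0.75) or WT differentiation replicate 8 (-1.12). Mvk, the mevalonate kinase, Idi1, which isomerises isopentenyl diphosphate, and Ggps1, which makes geranylgeranyl diphosphate for protein prenylation, passed in neither genotype. Their log2 fold changes were -0.01, 0.12 and -0.14 in KO cells and -0.41, -0.60 and -0.20 in WT cells. Exons of Fdps shared 26.7% of their bases with a neighbouring gene model on the same strand, Gm43738, in GENCODE M21.

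At the branch into sterols, Fdft1, the squalene synthase, had 223.5 and 409.5 CPM in KO differentiation against 147 and 154 CPM in KO proliferation (log2 fold change 1.07 ± 0.33 SE, edgeR adjusted p = 0.034). In WT cells it had 234 and 387 CPM in differentiation against 159 and 178 CPM in proliferation (0.88 ± 0.33, adjusted p = 0.0604). Differentiation libraries were higher than proliferation libraries in both genotypes, and the 2 differentiation libraries of a group stood far apart. The KO call was lost without KO proliferation replicate 7 (1.04), KO proliferation replicate 8 (1.11) or KO differentiation replicate 8 (0.57), and WT passed without WT differentiation replicate 7 (1.20). Exons of Ctsb on the opposite strand cover 18.3% of the exonic bases of Fdft1, and since no source says whether counting used the strand, reads from both cannot be told apart there.

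Lss, which cyclises epoxysqualene to lanosterol, had 201 and 244 CPM in KO differentiation against 130.3 and 73.3 CPM in KO proliferation, and 117 and 149 CPM in WT differentiation against 164 and 95.4 CPM in WT proliferation. It rose in KO cells (1.13 ± 0.35 SE, edgeR adjusted p = 0.035), while WT libraries overlapped (0.04 ± 0.35, adjusted p = 0.931). The KO call was lost without KO proliferation replicate 8 (0.78), KO differentiation replicate 7 (1.26) or KO differentiation replicate 8 (0.98). Sqle, a step that limits the sterol branch, passed in neither genotype, with log2 fold changes of 0.30 ± 0.22 in KO cells and -0.17 ± 0.22 in WT cells.

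Among the enzymes after lanosterol, the 2 genes for the same reaction had fold changes of opposite sign. Lbr, the lamin B receptor of the inner nuclear membrane, which also reduces the sterol C14 double bond, had 16.2 and 20.1 CPM in KO differentiation against 110.2 and 105.5 CPM in KO proliferation, and 18.7 and 18.2 CPM in WT differentiation against 117 and 108 CPM in WT proliferation. It fell by 2.57 and 2.60 on the log2 scale in KO and WT cells (SE 0.13 each, edgeR adjusted p = 3.2e-05 and 2.9e-05), with no overlap. Tm7sf2, the other C14 reductase, had 83.3 and 109 CPM in KO differentiation against 59.9 and 26.2 CPM in KO proliferation, and 79.6 and 86.7 CPM in WT differentiation against 50.7 and 25.0 CPM in WT proliferation. Every differentiation library of Tm7sf2 lay above every proliferation library, but the difference did not pass with edgeR (1.16 ± 0.46, adjusted p = 0.0727 in KO cells, and 1.13 ± 0.46, adjusted p = 0.0747 in WT cells). It passed without replicate 7 of KO proliferation (1.88) or of WT proliferation (1.74), and DESeq2 called it in both genotypes (1.17 in KO cells and 1.15 in WT cells). Per length, Tm7sf2 averaged 159 TPM and Lbr 11.2 TPM in KO differentiation, and 68.3 and 64.4 TPM in KO proliferation. Exons of Vps51 on the same strand cover 12.1% of the exonic bases of Tm7sf2.

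Cyp51 had 918 and 827 CPM in KO differentiation against 533 and 388 CPM in KO proliferation, and rose by 0.92 ± 0.20 on the log2 scale (SE, edgeR adjusted p = 0.00936). In WT cells it had 599 and 664 CPM in differentiation against 614 and 461 CPM in proliferation, and these overlapped (0.23 ± 0.20, adjusted p = 0.358). Sc5d, the sterol C5 desaturase, had 226 and 261 CPM in KO differentiation against 124 and 109 CPM in KO proliferation, and 212 and 218 CPM in WT differentiation against 146.5 and 129 CPM in WT proliferation. It rose in both genotypes without overlap, by 1.06 ± 0.12 in KO cells (adjusted p = 0.000722) and 0.64 ± 0.12 in WT cells (adjusted p = 0.00465).

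Ebp, the sterol isomerase, had 14.6 and 17.8 CPM in WT differentiation against 30.2 and 24.3 CPM in WT proliferation, and fell there by 0.75 (SE 0.19, edgeR adjusted p = 0.0143). In KO cells it had 18.4 and 19.9 CPM in differentiation against 31.0 and 24.4 CPM in proliferation, which did not pass (-0.53 ± 0.19, adjusted p = 0.0503) but did without KO proliferation replicate 8 (-0.69). The WT call was lost without WT proliferation replicate 7 (-0.58) or WT differentiation replicate 7 (-0.62). Msmo1, Nsdhl, which removes the C4 carboxyl group, Hsd17b7 and Dhcr7, the last enzyme of its branch, passed in neither genotype. Their log2 fold changes were 0.61, 0.67, 0.22 and 0.12 in KO cells and 0.15, 0.22, 0.18 and -0.23 in WT cells. Msmo1 and Nsdhl passed in KO cells without KO proliferation replicate 7 (0.95 and 1.06). Dhcr7 had 179 and 225 CPM in KO differentiation against 206 and 167 CPM in KO proliferation, and 166 and 208 CPM in WT differentiation against 226 and 212 CPM in WT proliferation.

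**Figure D2:**
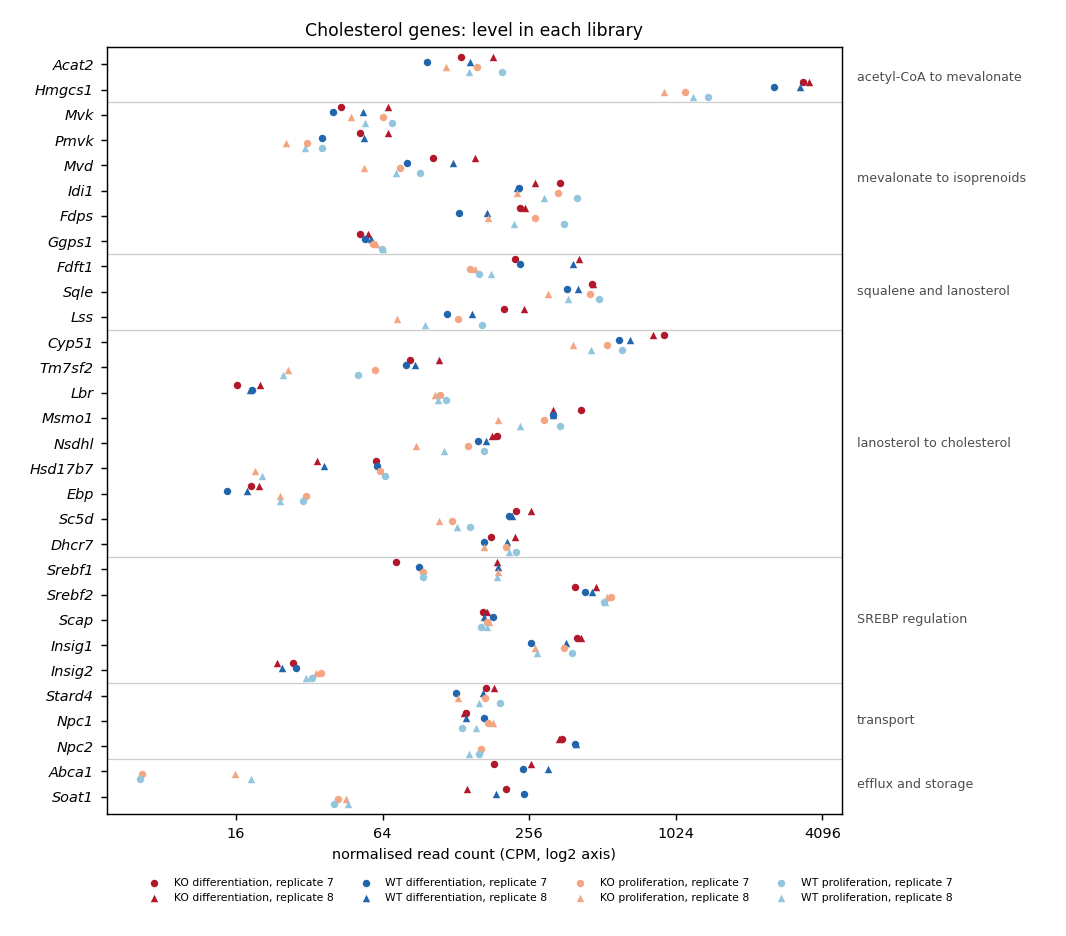
Normalised read count of the 30 tested genes (rows, grouped by role) in each library, in CPM on a log2 axis. Circles are libraries numbered 7 and triangles those numbered 8. Among the genes that separate by condition in both genotypes are Abca1, Soat1, Npc2, Hmgcs1, Lbr and Sc5d, while Srebf1 and Hsd17b7 separate by number.

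Of the 5 regulators, Insig2 alone passed, in KO cells. Srebf2, which encodes the SREBP that drives cholesterol synthesis, had 396 and 483 CPM in KO differentiation against 556 and 536 CPM in KO proliferation, and 433 and 466 CPM in WT differentiation against 522 and 525.5 CPM in WT proliferation. All differentiation libraries lay below all proliferation libraries, but the difference did not pass (-0.31 ± 0.12 SE, edgeR adjusted p = 0.0692 in KO cells, and -0.22 ± 0.12, adjusted p = 0.165 in WT cells), and it passed in KO cells without KO differentiation replicate 8 (-0.46). Srebf1, whose products also drive fatty acid synthesis, had 72.7 and 189 CPM in KO differentiation against 94.1 and 191 CPM in KO proliferation, and 90.3 and 191.5 CPM in WT differentiation against 94.0 and 189 CPM in WT proliferation. These values followed the replicate number in every group and did not pass (adjusted p = 0.88 and 0.992). Scap had between 163 and 182 CPM in all 8 libraries.

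Insig1 and Insig2 anchor the SCAP and SREBP complex. Insig1, itself a target of SREBP, had 401.5 and 420 CPM in KO differentiation against 357 and 272 CPM in KO proliferation, and 260.3 and 362 CPM in WT differentiation against 384 and 275 CPM in WT proliferation. It passed in neither genotype (edgeR adjusted p = 0.206 in KO cells and 0.784 in WT cells). Insig2 had 27.5 and 23.6 CPM in KO differentiation against 35.7 and 34.2 CPM in KO proliferation, and 28.1 and 24.7 CPM in WT differentiation against 33.0 and 31.1 CPM in WT proliferation. The libraries did not overlap in either genotype, and the gene fell in KO cells by 0.45 (SE 0.13, adjusted p = 0.0246), while it did not pass in WT cells (-0.28 ± 0.13, adjusted p = 0.105). The KO call was lost without KO proliferation replicate 7 (-0.42), KO proliferation replicate 8 (-0.48) or KO differentiation replicate 8 (-0.35).

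The transporters of endocytosed and cytosolic cholesterol did not move together. Npc2, the soluble lysosomal protein that binds cholesterol, had 348 and 339 CPM in KO differentiation against 163 and 160.4 CPM in KO proliferation, and 394 and 398 CPM in WT differentiation against 160.1 and 144 CPM in WT proliferation. It rose by 1.09 ± 0.09 in KO cells (SE, edgeR adjusted p = 0.000243) and 1.38 ± 0.09 in WT cells (adjusted p = 8.8e-05). Npc1, the membrane protein that takes cholesterol over from Npc2, had 141 and 138 CPM in KO differentiation against 174 and 182 CPM in KO proliferation, and 166 and 141 CPM in WT differentiation against 135.5 and 155 CPM in WT proliferation. It fell in KO cells by 0.35 (SE 0.12, adjusted p = 0.0446) and overlapped in WT cells (0.08 ± 0.12, adjusted p = 0.599). That KO call was lost without any one of the 4 KO libraries (log2 fold changes of -0.39 and -0.31 without proliferation replicates 7 and 8, and -0.37 and -0.34 without differentiation replicates 7 and 8), with DESeq2 size factors (-0.34) and without the filter on low counts (-0.34). Stard4, a cytosolic sterol carrier, passed in neither (178 ± 9.62 CPM in KO differentiation against 150 ± 26.5 CPM in KO proliferation, and 147 ± 26.9 CPM in WT differentiation against 177 ± 25.3 CPM in WT proliferation, SD, n = 2).

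Of the genes of export and storage, Abca1 and Soat1 rose in both genotypes, and Abca1 had the widest change among the 30 tested genes. Abca1, which loads cholesterol onto apolipoproteins at the cell surface, had 183.5 and 261 CPM in KO differentiation against 6.56 and 15.9 CPM in KO proliferation, and 243 and 305 CPM in WT differentiation against 6.46 and 18.4 CPM in WT proliferation. The log2 rise was 4.31 ± 0.62 in KO cells (SE, 19.8-fold, edgeR adjusted p = 0.00182) and 4.46 ± 0.62 in WT cells (22.0-fold, adjusted p = 0.00141). It was 5.09 without KO proliferation replicate 8 and 3.81 without KO proliferation replicate 7, and 5.40 without WT proliferation replicate 8 and 3.90 without WT proliferation replicate 7, and passed in each case. Soat1, which esterifies cholesterol for lipid droplets, had 206 and 143 CPM in KO differentiation against 41.8 and 45.4 CPM in KO proliferation, and 244 and 186.5 CPM in WT differentiation against 40.3 and 46.3 CPM in WT proliferation. It rose 3.99-fold in KO cells and 4.97-fold in WT cells (adjusted p = 0.000602 and 0.000289), with no overlap.

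**Figure D3:**
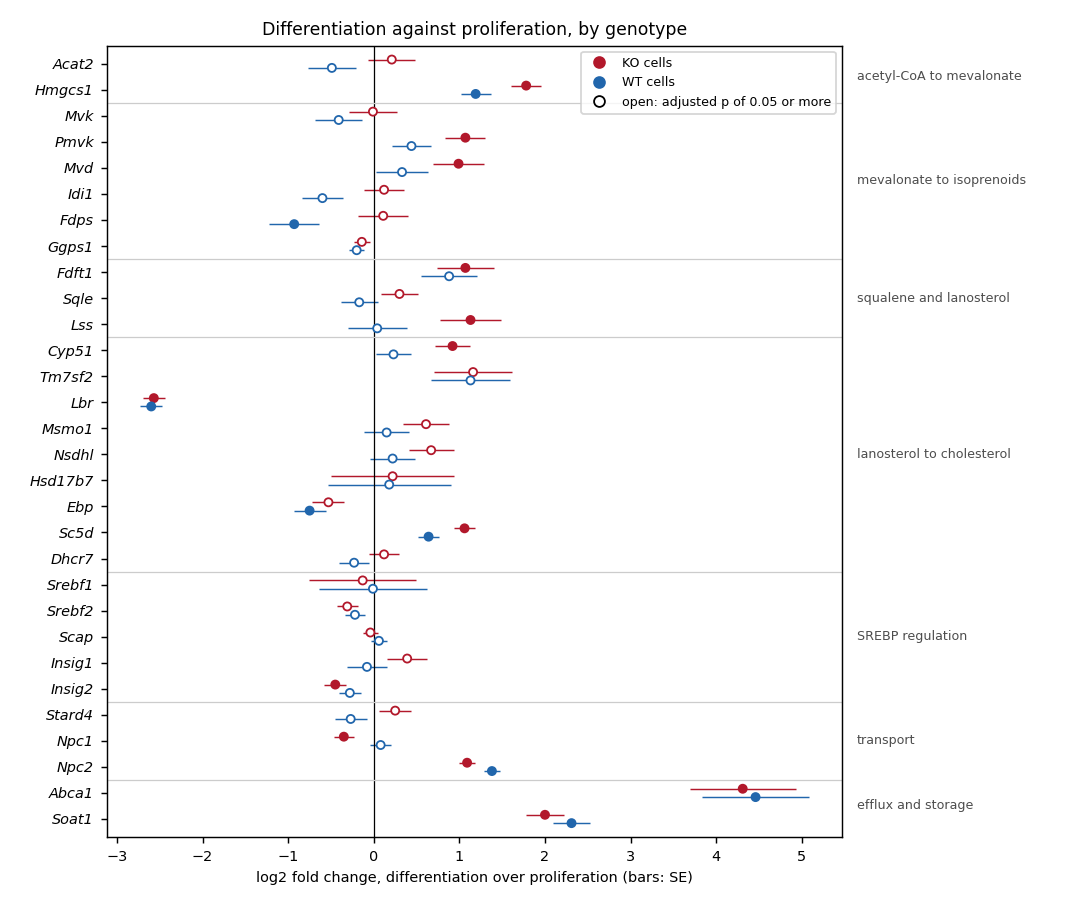
Log2 fold change of differentiation over proliferation (x axis, bars are SE) of the 30 tested genes in KO cells (red) and WT cells (blue), filled where the edgeR adjusted p was under 0.05. Abca1 (4.31 and 4.46) and Soat1 (2.00 and 2.31) lie farthest to the right and Lbr (-2.57 and -2.60) farthest to the left, and KO points lie right of WT points for all 20 enzymes.

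Cell type markers moved with the same comparison. Of 8 astrocyte markers 7 were higher in differentiation in each genotype, and their sum was 10260 and 10860 CPM in KO differentiation against 1630 and 1216 CPM in KO proliferation, and 13570 and 12530 CPM in WT differentiation against 1440 and 1357 CPM in WT proliferation. All 8 mitosis genes were lower in each genotype, with sums of 3.64 and 7.23 CPM in KO differentiation against 2201 and 2230 CPM in KO proliferation, and 7.86 and 11.4 CPM in WT differentiation against 2261 and 2438 CPM in WT proliferation. Oligodendrocyte markers, of which 3 of 6 were tested and 1 was higher in KO cells and 2 in WT cells, summed to 408 and 479 CPM in KO differentiation against 96.4 and 254 CPM in KO proliferation, and to 555 and 509 CPM in WT differentiation against 95.2 and 209 CPM in WT proliferation. Oligodendrocyte precursor markers, of which 5 of 6 were tested, had 2 higher in each genotype, with 3 lower in KO cells and 2 lower in WT cells, and summed to 2011 and 3202 CPM in KO differentiation against 5208 and 5526 CPM in KO proliferation, and to 2098 and 2439 CPM in WT differentiation against 4134 and 4264 CPM in WT proliferation. Neuronal markers had 4 of 5 tested genes higher in KO cells and 3 of 5 in WT cells, and summed to 1989 and 2067 CPM in KO differentiation against 1088 and 1275 CPM in KO proliferation, and to 1590 and 1773 CPM in WT differentiation against 1090 and 1300 CPM in WT proliferation. Of 7 neural stem cell markers 3 were higher and 1 was lower in each genotype, and of 5 tested ependymal markers 1 was higher, with 2 lower in KO cells and 1 lower in WT cells. None of these lists had a marker at 0 in every library. Their part in the changes of the cholesterol genes was not tested.

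Other lipid genes were counted from 5 lists, in the same comparison. Fatty acid synthesis genes had 11 of 19 tested members higher and 1 lower in KO cells, and 11 higher and 3 lower in WT cells (medians of 1.33 and 0.97 on the log2 scale, beside 0.01 for all genes). Of all tested genes, 25.1% were higher and 26.7% lower in KO cells, and 27.0% higher and 28.3% lower in WT cells. Fads2, the delta-6 desaturase, averaged 2413 ± 88.2 CPM in KO differentiation against 547.5 ± 43.4 CPM in KO proliferation, and 2589 ± 192 CPM in WT differentiation against 600.4 ± 1.28 CPM in WT proliferation (SD, n = 2). Acss2, which makes acetyl-CoA from acetate, rose by 2.32 in KO cells, Agpat3, an acyltransferase of phospholipid synthesis, by 1.5 in KO cells and 1.77 in WT cells, and Fads1, the delta-5 desaturase, by 1.58 in WT cells (edgeR adjusted p from 0.000139 to 0.000307).

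Sterol transport and lipoprotein genes had 21 of 34 higher and 3 lower in each genotype (medians of 0.76 in KO cells and 0.98 in WT cells). Lpl, the lipoprotein lipase, had 158.5 and 150.5 CPM in KO differentiation against 22.3 and 21.0 CPM in KO proliferation, and 118 and 192 CPM in WT differentiation against 26.4 and 22.4 CPM in WT proliferation. Lrp1, a receptor for lipoprotein remnants and many other ligands, rose by 1.20 in KO cells and 1.70 in WT cells, Scp2, a sterol carrier, by 1.43 in KO cells, and Abca3, a lipid transporter, by 1.22 in WT cells (edgeR adjusted p from 6.57e-05 to 0.000284). Both genotypes thus had most genes of the list higher, where 25.1% of all tested genes were higher in KO cells and 27.0% in WT cells.

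Of 13 tested genes of oxysterol metabolism and LXR function, 7 were higher and 1 was lower in each genotype (medians of 0.91 and 1.13), where 25.1% of all tested genes were higher and 26.7% lower in KO cells, and 27.0% higher and 28.3% lower in WT cells. Cyp46a1, which makes 24-hydroxycholesterol, the main route by which the brain disposes of cholesterol, had 13.9 and 11.9 CPM in KO differentiation against 3.00 and 3.03 CPM in KO proliferation, and 26.9 and 19.0 CPM in WT differentiation against 1.59 and 2.07 CPM in WT proliferation. Cyp7b1, an oxysterol hydroxylase, rose by 4.28 and 4.73 on the log2 scale in KO and WT cells, Rxra, the partner of LXR, by 0.99 in KO cells, and Hsd3b7, a sterol dehydrogenase of bile acid synthesis, by 2.29 in WT cells (edgeR adjusted p from 0.000459 to 0.00186). Cyp7b1 was near the floor in proliferation, at 0.328 and 0.542 CPM in KO cells and 0.212 and 0.478 CPM in WT cells. Its fold changes thus rest on few reads there.

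Of 15 genes that process and degrade the SREBP machinery, 3 were higher and 5 lower in KO cells, where 25.1% and 26.7% of all tested genes were, and 4 were higher and 5 lower in WT cells, where 27.0% and 28.3% were (medians of -0.33 and -0.29). These shares are near those of all genes. Mbtps1, the site-1 protease that makes the first cut in SREBP, had 112 and 132.5 CPM in KO differentiation against 267 and 264 CPM in KO proliferation, and 127 and 124 CPM in WT differentiation against 262 and 244 CPM in WT proliferation. Erlin1, an endoplasmic reticulum protein that restrains SREBP, fell by 1.55 and 1.49 in KO and WT cells, Rnf145, a sterol-responsive ubiquitin ligase, fell by 0.85 in KO cells, and Paqr3, which anchors the complex at the Golgi, rose by 1.27 in WT cells (edgeR adjusted p from 0.000471 to 0.00313). Of 15 genes of the isoprenoid branches, 2 were higher and 6 lower in each genotype (medians of -0.25 and -0.36). Of all tested genes, 25.1% were higher and 26.7% lower in KO cells, and 27.0% higher and 28.3% lower in WT cells. Pdss1, which builds the side chain of ubiquinone, fell by 1.21 and 1.66 in KO and WT cells, Rce1, a protease of prenylated proteins, fell by 1.13 and 0.85, and Fnta, a farnesyltransferase subunit, rose by 0.68 in KO cells (adjusted p from 0.000664 to 0.00367).

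The second comparison asked whether loss of YAP1 changes these genes within a condition. No gene of the set passed in KO against WT, in differentiation or in proliferation (edgeR quasi-likelihood test), where 0.00767% of all tested genes passed in proliferation and none in differentiation. Yap1 passed in proliferation (log2 fold change -2.42, edgeR adjusted p = 0.0322). In differentiation it did not pass (-1.99, adjusted p = 0.106), at 25.1% of the WT level. The test thus missed a loss of that size in the targeted gene, and the lack of calls does not show that the set is unchanged. DESeq2 and limma-voom also called none of the set. At an unadjusted p under 0.05, Npc1 was the sole gene of the set in proliferation, against 2.25% of all genes, and there was none in differentiation, against 4.77%. The calls above in 1 genotype alone, on Fdps, Ebp, Lss, Pmvk, Mvd, Fdft1, Cyp51, Insig2 and Npc1, do not show a difference between genotypes. Whether the change on differentiation differs by genotype is what the interaction term below tests.

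Without a call for any gene, the enzymes leaned in opposite directions in the 2 conditions. In differentiation, 17 of 20 enzymes had a log2 fold change of KO over WT above 0 (51.6% of all tested genes did), with a median of 0.24, and in proliferation 18 of 20 had one below 0 (49.8% did), with a median of -0.23. Among the 10 other tested genes the medians were -0.08 in differentiation and 0.03 in proliferation. Over all 30 genes the median was 0.19 in differentiation and -0.16 in proliferation, and between libraries of the same number it was 0.11 (number 7) and 0.13 (number 8) in differentiation, and -0.13 and -0.21 in proliferation. These medians moved with single libraries. In proliferation the median was -0.03 without KO replicate 8, -0.006 without WT replicate 7, -0.38 without KO replicate 7 and -0.32 without WT replicate 8, with 12, 12, 20 and 20 of 20 enzymes below 0. In differentiation it was 0.07 without KO replicate 8, 0.09 without WT replicate 7, 0.28 without KO replicate 7 and 0.32 without WT replicate 8, with 13, 16, 18 and 17 of 20 enzymes above 0.

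The enzymes farthest from 0 in differentiation were Lss, Fdps and Cyp51. Lss had 201 and 244 CPM in KO differentiation against 117 and 149 CPM in WT differentiation (log2 fold change 0.74 ± 0.35 SE, edgeR adjusted p = 0.934). Fdps had 234 and 245 CPM against 133 and 172 CPM (0.66 ± 0.29, adjusted p = 0.934), and Cyp51 918 and 827 CPM against 599 and 664 CPM (0.47 ± 0.20, adjusted p = 0.934), in KO and WT differentiation. No KO library of these 3 genes overlapped a WT library. In all, 12 genes of the set had both KO libraries above both WT libraries in differentiation, where 15.9% of all tested genes did: Hmgcs1, Idi1, Fdps, Sqle, Lss, Cyp51, Msmo1, Nsdhl, Ebp, Sc5d, Insig1 and Stard4. Npc1 and Npc2 had both below, where 15.6% of all genes did. The margin was small for Msmo1, at 322.0 CPM in KO replicate 8 against 321.1 CPM in WT replicate 8. It was also small for Npc1, at 140.7 CPM in KO replicate 7 against 140.8 CPM in WT replicate 8.

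In proliferation, 5 genes (16.7% of the set) had both KO libraries below both WT libraries, near the 15.5% of all tested genes that did: Hmgcs1, Ggps1, Fdft1, Sc5d and Dhcr7. Hmgcs1 had 1123 and 914 CPM in KO proliferation against 1393 and 1200 CPM in WT proliferation (-0.35 ± 0.17 SE, edgeR adjusted p = 1.0). Another 4 (13.3% of the set), Srebf2, Insig2, Npc1 and Npc2, had both KO libraries above, near the 14.8% of all genes that did. Npc1 had 174 and 182 CPM in KO proliferation against 135.5 and 155 CPM in WT proliferation (0.29 ± 0.12, unadjusted p = 0.0453, adjusted p = 1.0).

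Between libraries of the same number, 16 of 30 genes were lower in KO in proliferation and higher in KO in differentiation within both numbers, where 11.2% of all tested genes were. They were 14 enzymes, Insig1 and Stard4. Among them, Msmo1 was counted on 322.0 against 321.1 CPM in KO and WT differentiation within number 8. The enzymes outside this group were Ggps1, Fdft1, Tm7sf2, Lbr, Hsd17b7 and Ebp. The opposite pattern held for Srebf1, Insig2, Npc1 and Npc2 (13.3% of the set), near the 10.5% of all genes that had it. Srebf1 was counted on small margins in proliferation, at 94.06 against 94.04 CPM (number 7) and 191.3 against 189.4 CPM (number 8) in KO and WT cells. With no overlap of KO and WT libraries in either condition, the first pattern held for Hmgcs1 and Sc5d, where 3.78% of all genes had it, and the opposite one for Npc1 and Npc2, where 3.29% had it. KO and WT of the same condition are compared in each of these values, and the conditions share no library. Genes of the pathway are switched on together, so counts of genes in these comparisons are not counts of independent events. The labels do not say what libraries of the same number share.

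**Figure D4:**
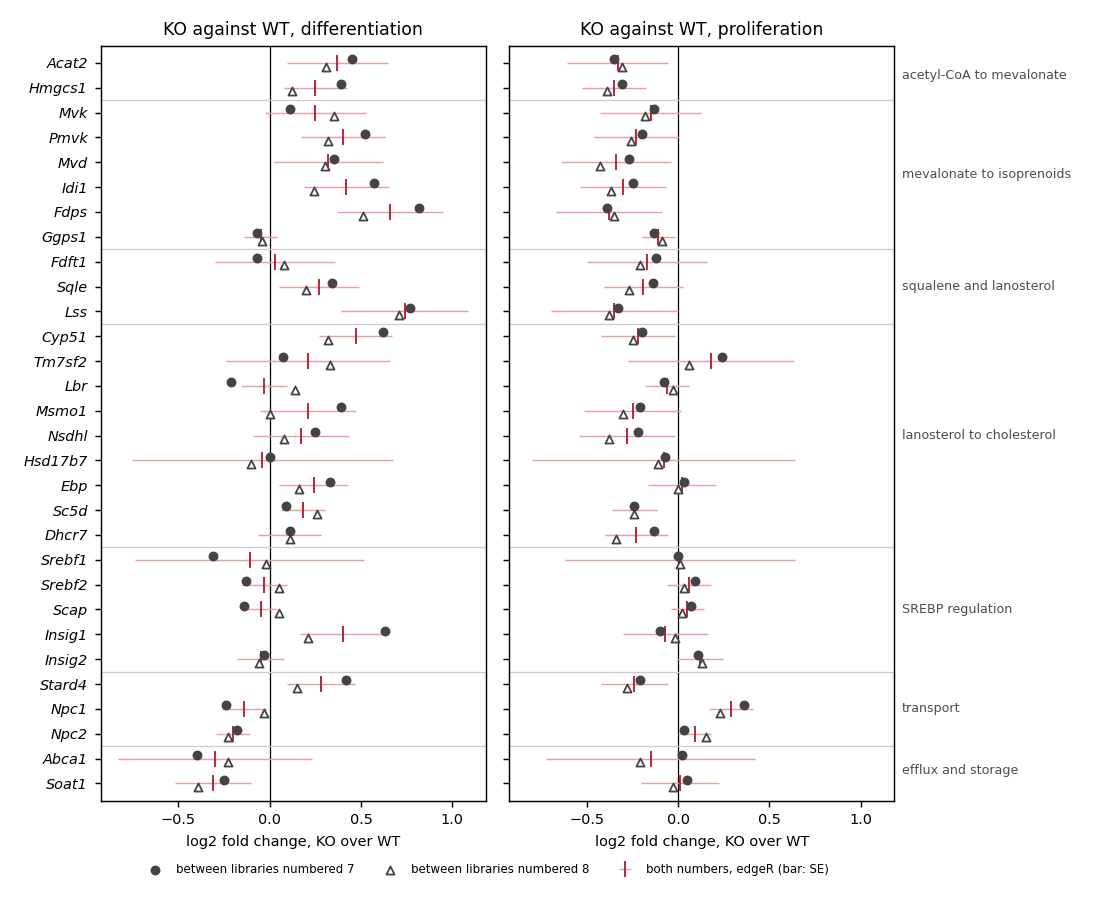
Log2 fold change of KO over WT (x axis) for the 30 tested genes in differentiation (left) and proliferation (right). Filled circles compare libraries numbered 7, open triangles those numbered 8, and red ticks with bars give the edgeR estimate and its SE. Most enzymes lie right of 0 in differentiation (17 of 20) and left of 0 in proliferation (18 of 20), and none of the genes passed the test.

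Whether the KO effect differed between conditions was tested with an interaction term. No gene of the set passed, and neither did any of the 13046 tested genes (edgeR). DESeq2 and limma-voom called none of the set. The estimate, the KO effect in differentiation minus that in proliferation, was above 0 for 20 of 20 enzymes and for 22 of 30 genes, against 50.2% of all tested genes, with a median of 0.37 over the set and 0.45 over the enzymes. When 1 library at a time was left out, the median over the set ranged from 0.21 to 0.66 and 17 to 20 of the 20 enzymes stayed above 0. It was 0.21 without KO proliferation replicate 8, 0.23 without WT proliferation replicate 7, 0.24 without KO differentiation replicate 8 and 0.23 without WT differentiation replicate 7, and 0.66 without KO proliferation replicate 7. At an unadjusted p under 0.05, 4 genes were above 0, where 1.6% of all genes were, and 1 was below 0, where 2.68% were. These were Fdps (1.03 ± 0.41 SE, unadjusted p = 0.0429), Cyp51 (0.69 ± 0.28, 0.0477), Hmgcs1 (0.60 ± 0.25, 0.0472) and Sc5d (0.42 ± 0.17, 0.0462) above 0, and Npc1 (-0.43 ± 0.17, 0.0391) below 0, each with an adjusted p of 0.981. The other lists of lipid genes had no call in KO against WT in either condition or for the interaction.

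No tested marker of the astrocyte, oligodendrocyte precursor, oligodendrocyte, neuronal or neural stem cell lists passed in KO against WT in either condition (edgeR). Their sums are given beside the enzymes. In differentiation the astrocyte markers summed to 10260 and 10860 CPM in KO cells and 13570 and 12530 CPM in WT cells, and the oligodendrocyte precursor markers to 2011 and 3202 CPM in KO cells and 2098 and 2439 CPM in WT cells. Neuronal markers summed there to 1989 and 2067 CPM in KO cells and 1590 and 1773 CPM in WT cells. Oligodendrocyte markers summed to 408 and 479 CPM in KO differentiation and 555 and 509 CPM in WT differentiation. In proliferation the oligodendrocyte precursor markers summed to 5208 and 5526 CPM in KO cells and 4134 and 4264 CPM in WT cells, and the neural stem cell markers to 4579 and 4505 CPM in KO cells and 5448 and 5451 CPM in WT cells. KO and WT sums overlapped for neural stem cell markers in differentiation, and for astrocyte, neuronal and oligodendrocyte markers in proliferation. Their part in the direction of the enzymes was not tested.

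Libraries 7 and 8 of the same group differed in many of these genes, and the sense depended on the condition. In both proliferation groups 22 of 30 genes were lower in library 8 than in library 7, where 36.7% of all tested genes were. In both differentiation groups 19 of 30 were higher in library 8, where 34.0% of all genes were. Both together held for 14 genes, 12 of them enzymes, where 7.39% of all genes had this pattern. The median log2 fold change of differentiation over proliferation for the 20 enzymes was 0.21 between KO libraries numbered 7 and 0.80 between those numbered 8, and -0.21 and 0.49 in WT cells.

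Hsd17b7 and Srebf1 differed between numbers by more than 1.5-fold in the same direction in all 4 groups, as did 5.14% of all genes. Hsd17b7 had 60.3 and 34.4 CPM in KO differentiation, 60.5 and 37.0 CPM in WT differentiation, 62.5 and 19.1 CPM in KO proliferation and 65.6 and 20.6 CPM in WT proliferation, for libraries 7 and 8. It was lower in library 8 each time, with log2 ratios from -1.71 to -0.71. Srebf1 was higher in library 8 each time, with log2 ratios from 1.01 to 1.38. The labels do not say what the numbers stand for.

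**Figure D5:**
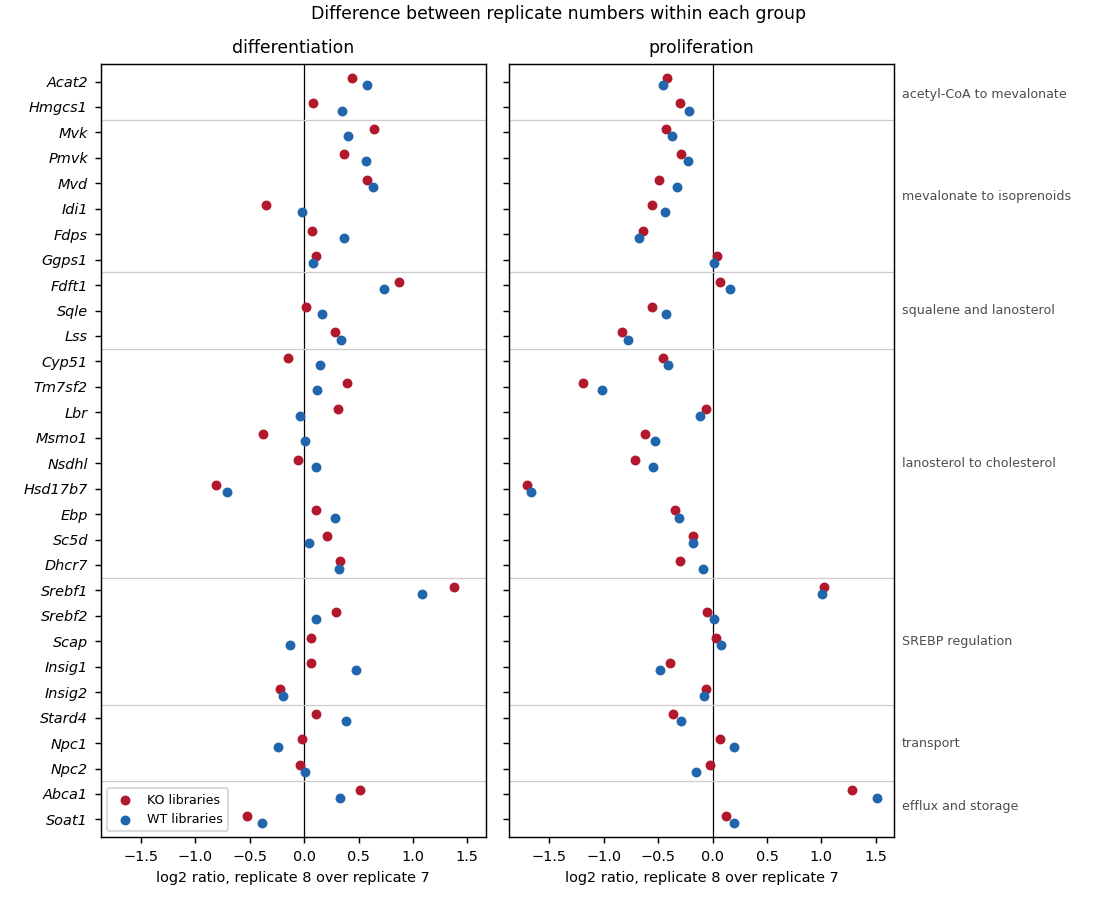
Log2 ratio of replicate 8 over replicate 7 (x axis) for the 30 tested genes in KO (red) and WT (blue) libraries, in differentiation (left) and proliferation (right). In proliferation the KO and WT points of Hsd17b7 lie at -1.71 and -1.67 and those of Srebf1 at 1.02 and 1.01, while in differentiation those of Insig1 lie apart, at 0.06 and 0.48.

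The authors' deposited table gives q-values for the 4 pairwise comparisons. At a q under 0.05 it called none of the set in KO against WT in either condition. Of all genes with a q-value, the authors' deposited table called 0.00629% higher and 0.145% lower in KO differentiation, and 0.0699% higher and 0.0254% lower in KO proliferation. For differentiation against proliferation, the authors' deposited table called 11 genes of the set higher in KO cells, where 17.2% of all genes were, and 1 lower, where 17.9% were. In WT cells the authors' deposited table called 7 of the set higher, where 21.0% of all genes were, and 4 lower, where 21.5% were. The calls of the authors' deposited table that the edgeR fit did not make were Tm7sf2 in KO cells and Fdft1, Tm7sf2 and Idi1 in WT cells, and those it lacked were Insig2 and Npc1 in KO cells.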

How the data were processed

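Per the labels' protocols, libraries were made from poly(A) RNA with dUTP strand marking and read by DNBSEQ. The deposited table holds estimated counts (expected counts, of which 6.51% of values were not whole) and TPM per library, made by the authors, and the authors' log2 fold changes and q-values for pairs of groups. No source used here gives the aligner, the counter or its use of strand. The submitters' processing notes name GRCm39, but the coordinates in the table match GRCm38: 85.4% of 16878 genes matched by identifier start at the same base as in RefSeq GRCm38.p6. Columns were tied to samples by genotype, condition and number. The 12 per-library columns of 4 libraries without a label were not used, nor was 1 line without a gene, and 318 genes were at 0 throughout.

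Estimated counts were rounded and tested with edgeR 4.0.16 in R 4.3.3 (TMM, filterByExpr over the 4 groups, robust quasi-likelihood F-test, 1 model with a term per group, 4 residual degrees of freedom, biological coefficient of variation 24.1%). P-values were adjusted by Benjamini-Hochberg over 13046 genes, 77.1% of those listed, and the threshold was 0.05. The same steps were tested on simulated data. CPM are rounded counts over the TMM-adjusted library size. Total counts ranged from 18075595 to 18940983 per library. The 2 libraries of a group differed beyond sampling noise (chi-square per degree of freedom from 33.1 to 62.2, Pearson r of log2 CPM from 0.9646 to 0.9755), so each counted as 1 replicate. With 2 against 2 libraries a permutation test cannot pass the threshold, and outliers were not sought within pairs.

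The alternatives were DESeq2 size factors, no filter on low counts, DESeq2 1.42.0 (Wald test), limma-voom (limma 3.58.1), the replicate number as a block, and leaving out each library in turn. The design was written for all 20 labelled samples, and 8 had columns. The cholesterol genes, the 5 other lipid lists and the cell type markers were chosen with earlier results of these data known. Every cholesterol gene is named, and from each other list up to 3 genes per comparison with the smallest p among those that passed. Of the SREBP processing list, 1 of 16 symbols was not found in the table. Promoters are the synthesis enzymes with a match and the highest TPM. Overlaps of exons were read from GENCODE M21. Some genes of the pathway are not reported here. Tables were handled with Python 3.11.15 and pandas 2.3.3.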

Additional observations from a re-analysis of the deposited data

Results flagged for a closer look

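For 4 genes, both KO libraries lay on one side of both WT libraries in differentiation and on the other side in proliferation. Hmgcs1 and Sc5d were higher in KO differentiation than in WT differentiation and lower in KO proliferation than in WT proliferation, a pattern of 3.78% of all tested genes. Their KO effect in differentiation exceeded that in proliferation by 0.60 and 0.42 on the log2 scale. Npc1 and Npc2 showed the opposite pattern, as did 3.29% of all tested genes. For Npc1 the nearest libraries in differentiation were at 140.7 CPM (KO replicate 7) and 140.8 CPM (WT replicate 8). The differences for Npc1 and Npc2 were -0.43 and -0.29. None of these differences passed the interaction test of edgeR (adjusted p = 0.981 each, unadjusted p = 0.0472 for Hmgcs1, 0.0462 for Sc5d, 0.0391 for Npc1 and 0.0615 for Npc2).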

How the results depend on the processing

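No called value changed sign under any alternative, and with 2 libraries per group single libraries moved several values. The calls for differentiation against proliferation of Hmgcs1, Lbr, Sc5d, Npc2, Abca1 and Soat1 in both genotypes, and of Cyp51 and Pmvk in KO cells, held in all 9 alternatives. Of the other calls, Mvd kept 7 of 9, Fdft1, Lss and Insig2 6 and Npc1 3 in KO cells, and Ebp 7 and Fdps 6 in WT cells. DESeq2 added Tm7sf2, Msmo1, Nsdhl and Srebf2 in KO cells and Idi1, Fdft1 and Tm7sf2 in WT cells, and limma-voom added Tm7sf2 in KO cells. The cause was not tested.

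Libraries of the same number deviated together (correlations of 0.784 between KO and WT proliferation, 0.703 between KO and WT differentiation, and 0.576 in KO and 0.538 in WT cells between conditions), but there are only 2 numbers and no label says what they share. With the replicate block, the genes of the set called lower were 5 in KO cells and 5 in WT cells (3 each without it), those called higher 13 and 7 (10 and 5 without it), and no call was lost. The added calls were Tm7sf2, Msmo1, Nsdhl, Ebp and Srebf2 in KO cells and Idi1, Fdft1, Tm7sf2 and Insig2 in WT cells.

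In KO against WT no alternative called a gene of the set. Over all genes, DESeq2 called 6 higher and 5 lower in proliferation, and 4 higher and 36 lower in differentiation, the replicate block 1 higher in proliferation and 3 lower in differentiation, and the fit without the filter 1 lower in differentiation. For the interaction DESeq2 called 3 higher and 10 lower, and gave an adjusted p for 22 of the 30 genes of the set. When 1 library at a time was left out, genes called lower in proliferation were 0 each time, against 1 with all libraries. The median log2 fold change of the set then ranged from -0.384 to -0.006 in proliferation, from 0.066 to 0.315 in differentiation and from 0.209 to 0.659 for the interaction. In differentiation against proliferation, genes of the set called lower ranged from 1 to 2 in KO cells and from 1 to 3 in WT cells.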
